A study of Mus musculus with 6 samples.

Results

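The genes described here are 32 genes of glycolysis, the pentose phosphate pathway and the hypoxia response, measured by RNA-Seq in Tregs from the BM of mice. They were chosen by name, by a rule that uses no measured value but with earlier results of these data known, as the glucose and lactate carriers, the enzymes that turn glucose into lactate, the regulators of this flux, a small set of HIF pathway genes and the enzymes of the pentose phosphate pathway. Each of the 32 names matched 1 row among the 36930 features of each deposited table, and all 32 were among the 13923 features that reached the level required for testing, 1 RPKM or more averaged across 6 libraries. RPKM is the number of reads scaled by the length of the feature and the depth of the library, so levels of different genes can be set side by side.

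The Tregs were FACS-purified from 3 naive and 3 CML mice of the Foxp3-DTR-GFP strain at post natal week 8, with 1 library for each mouse. In both groups the Foxp3 locus drives the diphtheria toxin receptor and GFP. CML was induced by i.v. injection of LSKs, a stem and progenitor cell fraction of the BM, that had been transduced with BCR-ABL1-GFP into syngeneic mice that were not irradiated, and Tregs were taken at day 15. The leukemic cells of CML mice therefore also carry GFP, host hematopoiesis remains, and p-values measure the spread between these 6 mice.

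Glycolysis splits glucose into pyruvate in the cytosol and yields ATP without oxygen. Lactate dehydrogenase then turns pyruvate into lactate and restores the NAD+ that glycolysis needs, and the pentose phosphate pathway branches off early to supply NADPH and ribose. The transcription factor HIF-1α is degraded when oxygen is present and, when stable, activates many glycolytic genes. Activated effector T cells are known for high glycolysis, whereas Tregs are known to rely more on mitochondrial oxidation, with glycolysis used when they proliferate or migrate.

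The depth of a library was estimated from steps in the deposited values and ranged from 829181 reads in CML replicate 2 to 9751911 reads in naive replicate 3. In CML replicate 2, the 10 highest features held 50.7% of the summed RPKM, compared with 28.5% to 31.3% in the other 5 libraries. All 8 Treg markers were detected in every library, with Foxp3 between 297 and 468 RPKM. The 12 erythroid markers summed to 134, 45.6 and 256 RPKM in CML replicates 1, 2 and 3 and to 9.15 to 40.1 RPKM in naive Tregs, with Epor at 0 in all libraries. The 16 markers of neutrophils and myeloid progenitors summed to 24.3, 218 and 255 RPKM in CML replicates 1, 2 and 3 and to 37.7 to 68.7 RPKM in naive Tregs, with Ly6g, Mmp8 and Retnlg at 0 in all libraries. The 20 genes of cycling cells summed to 675, 385 and 764 RPKM in the CML libraries and to 395 to 409 RPKM in the naive libraries. The 6 megakaryocyte and platelet markers summed to 0.677, 0 and 1.85 RPKM in CML replicates 1, 2 and 3 and to 1.94 to 7.77 RPKM in naive Tregs. The CML sums lay below the naive sums, but by a small margin and at very low levels. Of these 6 markers, 1 reached the level required for testing, and Ppbp and Gp1bb were at 0 in all libraries. The sums of monocyte, cytotoxic and NK, stem cell and dendritic cell markers overlapped between the groups. Of these lists, the 8 dendritic cell markers, among them Irf8 and Siglech, had the highest sum in every library. Their sum was lowest in naive replicate 2, at 447 RPKM, and highest in naive replicate 1, at 1060 RPKM. The CML sums of this list lay between these values, from 572 to 675 RPKM. The part of other cells, of cycling and of depth in the results below was not tested.

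Aldoa, Pkm, Ldha, Tpi1 and Hk2, which encode enzymes of the main path from glucose to lactate, and Hif1a, which encodes HIF-1α, were higher in CML Tregs than in naive Tregs at an unadjusted p under 0.05. No member was lower at that level. With limma and Benjamini-Hochberg adjustment over all 13923 features, 0 of the 32 members passed an adjusted p of 0.05 and a 1.5-fold change, and 0.172% of all features passed (0.0431% as higher and 0.129% as lower in CML Tregs). At an unadjusted p under 0.05 with limma, 6 of the 32 members were higher in CML Tregs, compared with 2.92% of all features, and 0 were lower, compared with 6.77% of all features. These shares of all features depended on the scaling of the libraries, and were 5.33% higher and 5.44% lower with quantile normalization, where 8 members were higher and 0 lower. In either direction, 9.68% of all features had such a p, and 17.1% did not overlap between the groups. The 3 CML libraries lay above the 3 naive libraries for 9 members, compared with 4.84% of all features, and below them for 1 member, compared with 12.2% of all features. Among the members, 18 had a log2 fold change above 0 and 14 below 0, and with quantile normalization 23 lay above 0. Over all features tested, 35.7% lay above 0. The median log2 fold change of the members was 0.07, where the median of all features tested was -0.18, and 25 of the 32 members lay above that median. The counts depended on single libraries. The 6 members at an unadjusted p under 0.05 became 2 without naive replicate 1 and 3 without CML replicate 3. The 9 members above the naive range became 15 without CML replicate 2. In bulk RNA, a difference in the number of cells of a kind and a difference in RNA per cell cannot be told apart.

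**Figure D1:**
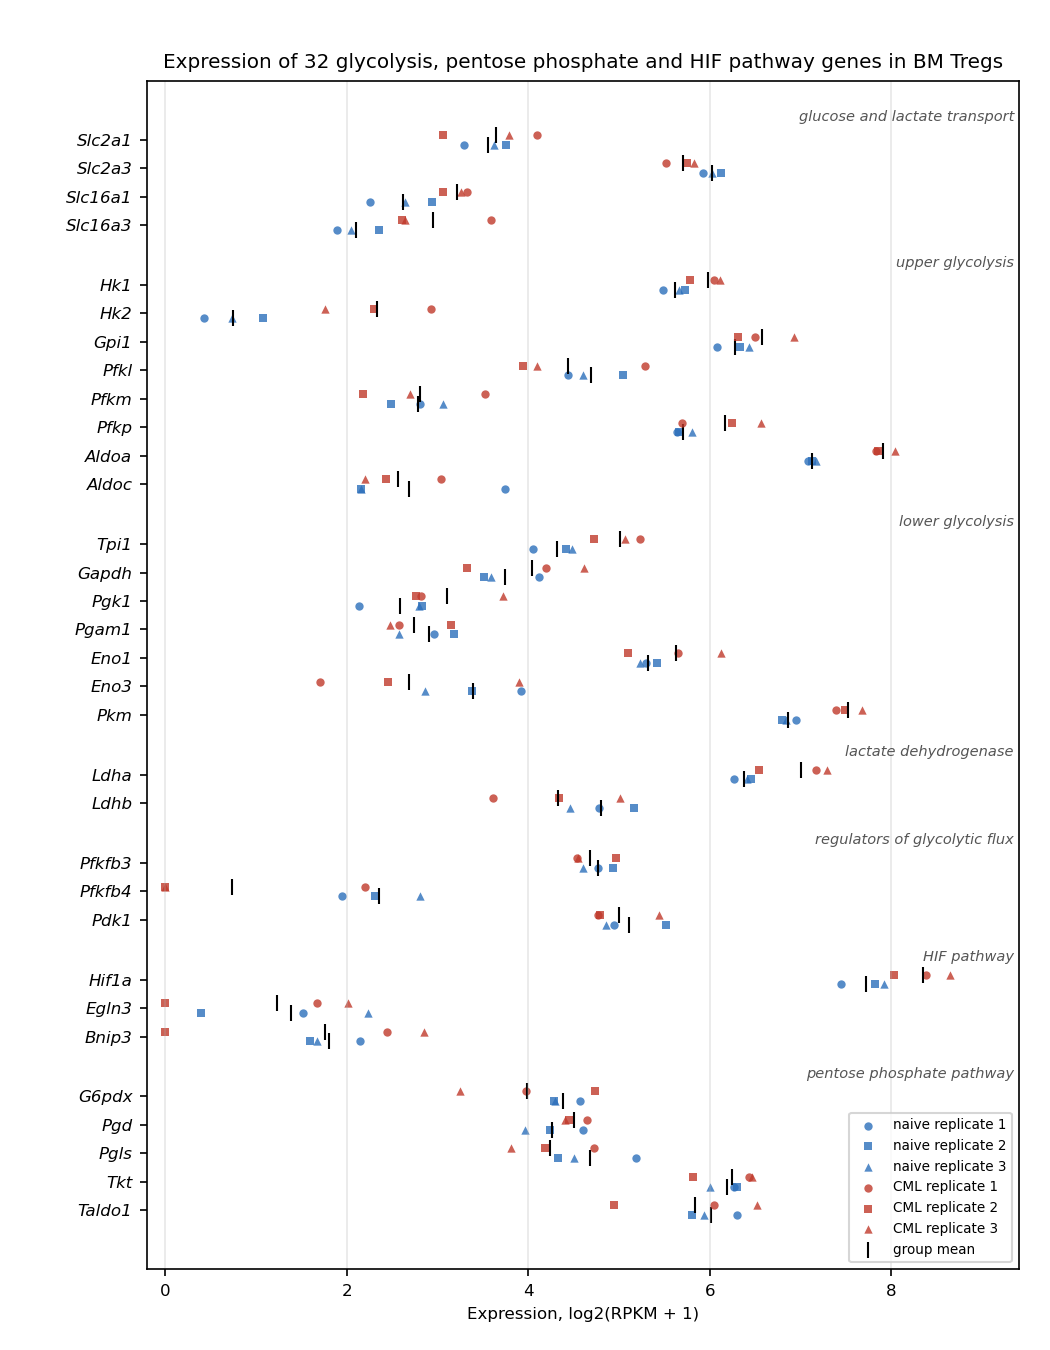
Levels of the 32 members in every library, on an axis of log2(RPKM + 1) with the members ordered by role. Each point is 1 library of 1 mouse, and the vertical ticks are group means. Aldoa, Pkm, Ldha and Hif1a are among the highest members, and their CML points lie to the right of their naive points.

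The members differed in level over a wide range, from Egln3 with a mean of 1.85 RPKM over the 6 libraries to Hif1a with 272 RPKM. The summed RPKM of the 32 members was 1620, 1377 and 1893 in CML replicates 1, 2 and 3 and 1200.2, 1273 and 1237 in naive replicates 1, 2 and 3. All 3 CML sums lay above the naive sums. Such sums, also those by role, follow their highest genes. Mean levels in CML and naive Tregs were 331 and 213 RPKM for Hif1a and 239.8 and 139 RPKM for Aldoa. For Pkm they were 183 and 115 RPKM, and for Ldha 130 and 82.2 RPKM. Of the 32 members, 14 had a log2 fold change below 0. By role, the 8 genes of upper glycolysis summed to 510 ± 55.3 RPKM in CML Tregs and to 354 ± 17.9 RPKM in naive Tregs (SD, n = 3 each), and the 7 genes of lower glycolysis to 302 ± 49.9 and 208 ± 8.67 RPKM. The 5 genes of the pentose phosphate pathway summed to 194 ± 39.7 RPKM in CML Tregs and to 200.4 ± 30.6 RPKM in naive Tregs, a difference smaller than either SD. The carriers summed to 78.7 ± 5.39 and 83.7 ± 8.41 RPKM, with overlap of the groups.

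Promoter sequences are shown for the 4 members described in full below whose promoter window held at least 2 matches to ACGTG. These letters are a form of the core of the hypoxia response element, and other forms were not searched. The element was chosen since Hif1a is a member and several of its known targets are too. Each window is the 250 bases before a start annotated by RefSeq on GRCm38.p6, printed 5′ to 3′ along the gene, and capitals mark ACGTG or its reverse complement CACGT. Where both overlap in the letters CACGTG, the match was counted once.

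Ldha, chr7:46845554-46845803, + strand: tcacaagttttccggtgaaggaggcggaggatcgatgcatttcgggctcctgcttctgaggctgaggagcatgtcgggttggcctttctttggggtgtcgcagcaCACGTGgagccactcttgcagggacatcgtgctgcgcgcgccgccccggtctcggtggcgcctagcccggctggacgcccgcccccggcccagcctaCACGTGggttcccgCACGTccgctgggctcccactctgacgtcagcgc

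Hif1a, chr12:73907617-73907866, + strand: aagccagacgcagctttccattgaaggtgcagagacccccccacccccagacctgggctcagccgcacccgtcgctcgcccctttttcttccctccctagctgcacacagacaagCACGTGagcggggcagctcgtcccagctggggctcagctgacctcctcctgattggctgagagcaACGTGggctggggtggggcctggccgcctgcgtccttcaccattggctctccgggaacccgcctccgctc

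Hk2, chr6:82774455-82774704, - strand: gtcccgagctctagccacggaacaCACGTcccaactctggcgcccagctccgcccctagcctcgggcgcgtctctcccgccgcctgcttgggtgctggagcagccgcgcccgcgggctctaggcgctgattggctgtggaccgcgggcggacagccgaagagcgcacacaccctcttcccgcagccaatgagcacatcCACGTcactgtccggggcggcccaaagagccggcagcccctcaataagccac

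Slc16a3, chr11:120948817-120949066, + strand: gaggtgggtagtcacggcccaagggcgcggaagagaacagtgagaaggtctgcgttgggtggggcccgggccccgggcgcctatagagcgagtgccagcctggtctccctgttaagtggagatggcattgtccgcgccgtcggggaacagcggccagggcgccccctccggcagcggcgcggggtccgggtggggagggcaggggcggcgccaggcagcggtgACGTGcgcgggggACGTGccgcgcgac

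The Ldha window held 3 matches, of which 2 were CACGTG, and the Hif1a window held 2, of which 1 was CACGTG. A second annotated window of Ldha held 0 matches. The window of Pgk1, whose groups overlapped and whose sequence is not shown, also held 2 matches. RefSeq windows were found for 31 of the 32 members, with Slc2a3 as the exception. At least 1 match was present in 17 of the 45 member windows (37.8%), compared with 5444 of all 32851 windows of the same length (16.6%), and at least 3 matches in 1 member window (2.22%), compared with 84 of all windows (0.256%). By gene, 14 of 31 members (45.2%) and 4998 of 27025 genes (18.5%) held a match in any window. Among the other members given in full, the windows of Tpi1, Tkt, Hk1 and Pdk1 held 0 matches. The window of Slc16a1 held 1, those of Pkm held 0 and 1, and those of Aldoa held 0, 1 and 1, the last pair overlapping. These matches are a description of the letters in the windows, no binding was measured, and base composition was not matched between members and other genes. Because the element was chosen for known HIF targets among the members, their higher share is not an independent result.

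Among the carriers, both monocarboxylate transporters, which move lactate across the plasma membrane, were above the naive range in CML Tregs, and Slc2a3 was below it. Slc16a3 (chromosome 11, 120948484 to 120959000), the transporter MCT4 of lactate-exporting cells, was at 11.1, 5.12 and 5.26 RPKM in CML replicates 1, 2 and 3 and at 2.73, 4.12 and 3.12 RPKM in naive replicates 1, 2 and 3. CML replicate 1 was the highest, and the groups did not overlap. The log2 fold change of Slc16a3 was 0.85 with an SE of 0.45 (limma, adjusted p = 0.583). Slc16a1, the more widely expressed transporter MCT1, was at 9.04, 7.32 and 8.56 RPKM in CML Tregs and at 3.77, 6.69 and 5.26 RPKM in naive Tregs, without overlap. Its log2 fold change was 0.60 with an SE of 0.38 (limma, adjusted p = 0.639). In CML replicate 2 the values rest on few reads, an estimated 18.4 for Slc16a3 and 26.9 for Slc16a1. The distance of that library from the naive range is therefore uncertain for both transporters. Slc2a3, which encodes the high-affinity glucose transporter GLUT3, was the highest carrier, at 44.9, 52.7 and 55.9 RPKM in CML Tregs and at 59.9, 68.6 and 64.2 RPKM in naive Tregs. All 3 CML values of Slc2a3 lay below the naive values, with a log2 fold change of -0.33 and an SE of 0.18 (limma, adjusted p = 0.587), but the groups overlapped under 4 other scalings of the libraries. Slc2a1, which encodes GLUT1, was at 7.37 to 16.1 RPKM in CML Tregs and at 8.77 to 12.5 RPKM in naive Tregs, which gave a log2 fold change of 0.09 and a 95% interval from -0.76 to 0.95.

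In upper glycolysis, both hexokinases and Aldoa were above the naive range. Hk2 (chromosome 6, 82725025 to 82774454), the inducible hexokinase that traps glucose in the cell as glucose-6-phosphate, was at 6.63, 3.94 and 2.38 RPKM in CML Tregs and at 0.350, 1.12 and 0.670 RPKM in naive Tregs. The lowest CML library was above the highest naive library. The log2 fold change of Hk2 on the log2(RPKM + 1) scale was 1.58 with an SE of 0.53 (limma, adjusted p = 0.392), the highest among the members, and the ratio of its group means was 6.06. These values rest on few reads, an estimated 18.0 and 30.02 in CML replicates 2 and 3 and 10.01 to 54.1 in the naive libraries. Hk1, the housekeeping hexokinase, was at 65.1, 54.1 and 67.9 RPKM in CML Tregs and at 43.6, 51.8 and 49.5 RPKM in naive Tregs. Its groups did not overlap, with a log2 fold change of 0.36 and an SE of 0.18 (limma, adjusted p = 0.572).

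Aldoa (chromosome 7, 126795234 to 126800994), which encodes the aldolase that cleaves fructose-1,6-bisphosphate, was at 227, 230.4 and 262 RPKM in CML replicates 1, 2 and 3 and at 135, 139 and 143 RPKM in naive replicates 1, 2 and 3. The libraries within each group were close to each other, including CML replicate 2, and the groups were far apart. The means were 239.8 ± 19.1 and 139 ± 3.89 RPKM (SD, n = 3 each), a log2 fold change of 0.78 with an SE of 0.14 (limma, adjusted p = 0.111), and its p was the smallest among the members. Scaled by quantiles, by the 75th percentile, by the median of ratios or by the sum without the highest features, the adjusted p of Aldoa was 0.0483, 0.0479, 0.0463 and 0.0452, and over all 17 alternatives it ranged up to 0.519. No gene of another name shared near-identical sequence with Aldoa.

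The other 5 genes of this group overlapped between CML and naive Tregs. Pfkp, the platelet-type phosphofructokinase subunit of the step that commits glucose to glycolysis, was at 50.6, 74.5 and 93.5 RPKM in CML Tregs and at 48.8, 49.5 and 55.0 RPKM in naive Tregs, so that CML replicate 1 alone fell within the naive range. Its log2 fold change was 0.46 with an SE of 0.24 (limma, adjusted p = 0.583), and 18.0% of its transcript overlaps Pitrm1. The log2 fold changes of Gpi1, Pfkm, Aldoc and Pfkl, an isomerase, a pair of phosphofructokinase subunits and a second aldolase, lay between -0.25 and 0.30.

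**Figure D2:**
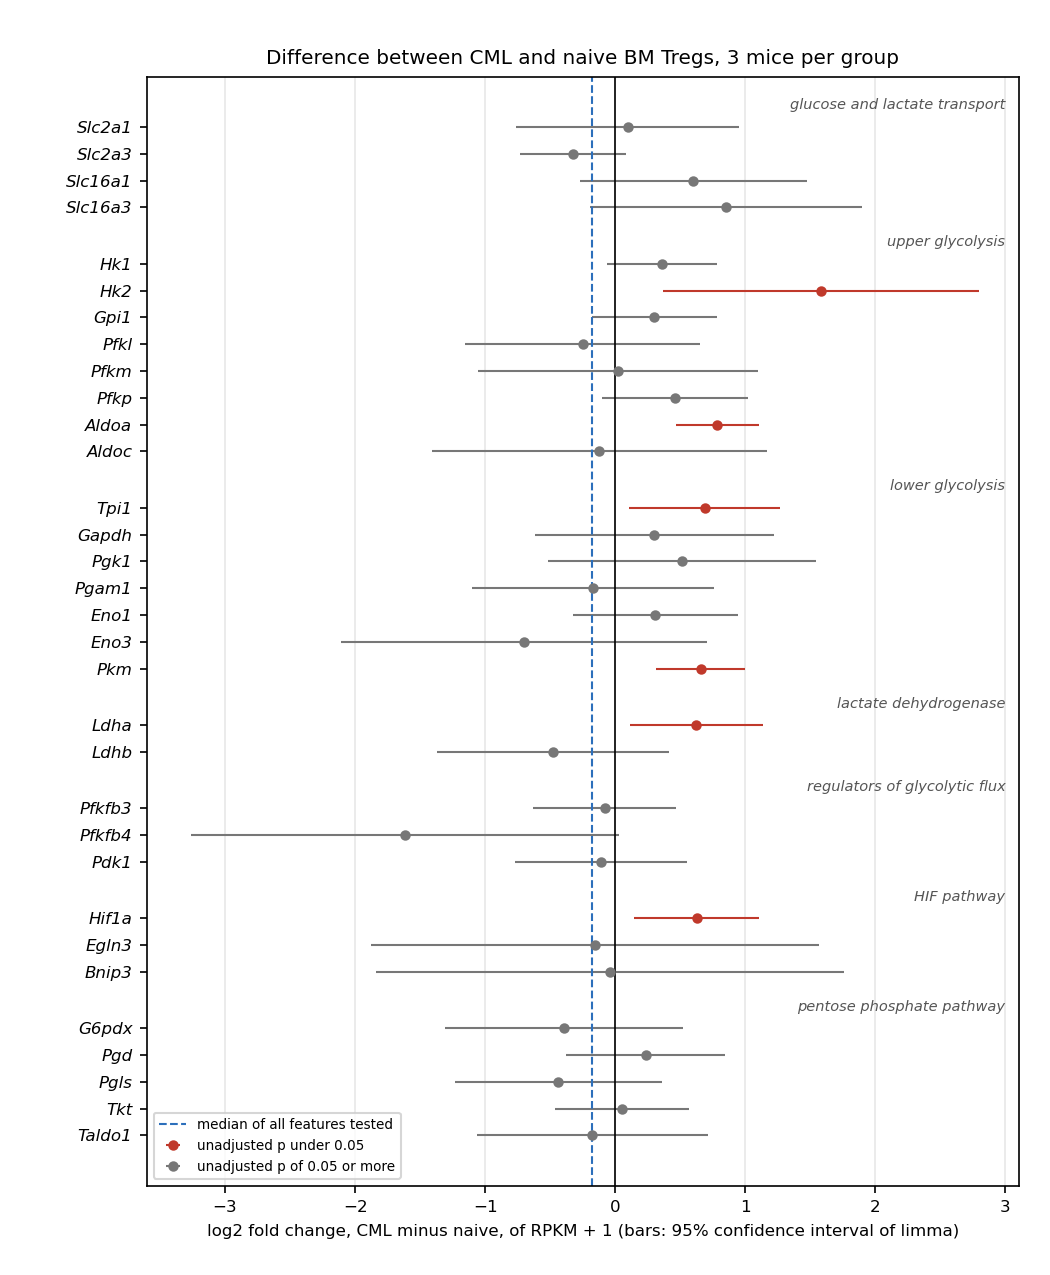
Log2 fold change of CML over naive Tregs for each member on the log2(RPKM + 1) scale, with its 95% interval from limma (3 libraries in each group) and the median of all features tested as a reference line. The intervals of Hk2, Aldoa, Tpi1, Pkm, Ldha and Hif1a lie above 0, and no interval lies below 0.

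In lower glycolysis, Tpi1 and Pkm were above the naive range and the other 5 genes overlapped. Pkm (chromosome 9, 59656576 to 59679372), which encodes pyruvate kinase, the last enzyme of glycolysis, was at 166, 179 and 203 RPKM in CML Tregs and at 122, 110.1 and 114 RPKM in naive Tregs. Every CML library was above every naive library, also CML replicate 2. The log2 fold change of Pkm was 0.66 with an SE of 0.15 (limma, adjusted p = 0.226). The values do not separate the muscle-type and the embryonic-type mRNA of Pkm. Tpi1 (chromosome 6, 124810586 to 124814158), the triose isomerase, was at 36.6, 25.5 and 32.6 RPKM in CML Tregs and at 15.6, 20.4 and 21.4 RPKM in naive Tregs. The groups did not overlap, with a log2 fold change of 0.69 and an SE of 0.25 (limma, adjusted p = 0.442).

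Several genes of lower glycolysis have near-identical copies in the genome, so their reads could be placed in more than 1 way by the authors' assembly. For Gapdh, the glyceraldehyde-3-phosphate dehydrogenase often used as a reference, 81 other gene models matched at 95% identity over 100 bases or more and covered 88.0% of its transcript. Gapdh was at 17.3, 8.98 and 23.4 RPKM in CML Tregs and at 16.3, 10.4 and 11.1 RPKM in naive Tregs, near the 53.1 percentile of the features tested, and its level is therefore uncertain. For Pgk1, a kinase that makes ATP, 4 pseudogenes covered 68.8% of the transcript, and its levels of 5.77 to 12.2 RPKM in CML Tregs and at 3.38 to 6.09 RPKM in naive Tregs are uncertain too. Eno1, which encodes an enolase, was at 33.3 to 68.7 RPKM in CML Tregs and at 36.5 to 41.8 RPKM in naive Tregs. Its near-identical copy Eno1b has a row of its own, with 66.9, 63.8 and 80.8 RPKM in CML Tregs and at 45.8, 58.9 and 53.3 RPKM in naive Tregs, and did not overlap between the groups. Copies also covered part of Pkm (65.5%), Ldha (55.0%), Ldhb (76.8%), Gpi1 (55.3%), Pgam1 (43.1%), Tpi1 (19.3%) and Bnip3 (94.2%), so the levels of these genes are uncertain to that extent. The log2 fold changes of Pgam1, a mutase, and Eno3, the muscle enolase, were -0.17 and -0.70, both with intervals that include 0.

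Ldha and Ldhb encode the subunits of lactate dehydrogenase, of which the A subunit favors lactate formation. Ldha (chromosome 7, 46842274 to 46855627) was at 143, 91.9 and 155 RPKM in CML replicates 1, 2 and 3 and at 76.2, 86.3 and 84.1 RPKM in naive replicates 1, 2 and 3. CML replicate 2 was just above the naive libraries and the other CML libraries were far above them. The log2 fold change of Ldha was 0.62 with an SE of 0.22 (limma, adjusted p = 0.429). Ldhb was at 11.2, 19.2 and 31.3 RPKM in CML Tregs and at 26.5, 34.8 and 21.02 RPKM in naive Tregs, with overlap and a log2 fold change of -0.48 (95% interval -1.37 to 0.41).

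Isoenzymes were also compared as ratios within a library. A plain ratio of RPKM does not depend on how libraries were scaled to each other, whereas the tested ratio, with 1 RPKM added to each gene, still does for low genes. Among 9 such pairs, 2 did not overlap between CML and naive Tregs, where 17.1% of all single features did not overlap. Both pairs hold members that did not overlap by themselves (Ldha, Hk1 and Hk2), so they are not an independent result. The RPKM of Ldha was 12.7, 4.78 and 4.96 times that of Ldhb in CML Tregs and 2.88, 2.48 and 4.002 times in naive Tregs. On the log2 scale with 1 RPKM added, the ratio was 2.68 ± 0.76 in CML Tregs and 1.58 ± 0.34 in naive Tregs (SD, n = 3 each, exact 2-sided permutation test, p = 0.1, adjusted p = 0.45 over the 9 pairs). The smallest p that 3 mice against 3 allow is 0.1. Ldha made up 82.7% to 92.7% of the summed lactate dehydrogenase RPKM in CML Tregs and 71.2% to 80.0% in naive Tregs. Near-identical copies cover 55.0% of the Ldha and 76.8% of the Ldhb transcript, so this ratio and these shares are uncertain.

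The RPKM of Hk1 was 9.82, 13.7 and 28.5 times that of Hk2 in CML Tregs and 125, 46.3 and 73.8 times in naive Tregs. The log2 ratio with 1 RPKM added was 3.65 ± 0.63 in CML Tregs and 4.87 ± 0.21 in naive Tregs (SD, n = 3 each, exact 2-sided permutation test, p = 0.1, adjusted p = 0.45). The difference in this ratio moved from -1.22 to -2.07 with 0.1 RPKM added instead of 1. Hk2 was the minor hexokinase in every library, with 3.39% to 9.24% of the sum in CML Tregs and 0.796% to 2.11% in naive Tregs. For the other 7 pairs the groups overlapped, and the difference for Pfkfb3/Pfkfb4 moved from 1.54 to 3.56 with 0.1 RPKM added. The proportion of Pfkp among the phosphofructokinase subunits was 80.6% and 81.3% in CML replicates 2 and 3 but 51.1% in CML replicate 1, compared with 57.6% to 64.7% in naive Tregs.

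**Figure D3:**
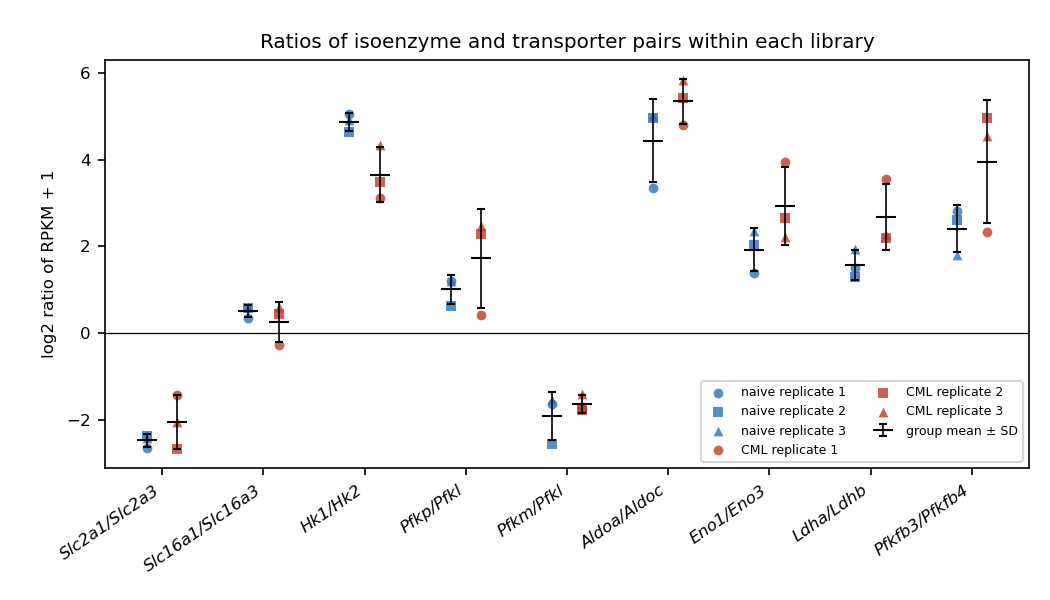
Log2 ratios of RPKM + 1 for the 9 isoenzyme and transporter pairs in each library, with 1 point for each mouse and the group mean ± SD. The CML and naive points are separated for Hk1/Hk2, lower in CML Tregs, and for Ldha/Ldhb, higher in CML Tregs.

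The regulators of glycolytic flux did not pass the test, and their log2 fold changes were all below 0. Pdk1, a mitochondrial kinase that inhibits pyruvate dehydrogenase and the highest of the 3 regulators, was at 26.3, 26.6 and 42.5 RPKM in CML Tregs and at 29.9, 44.8 and 27.9 RPKM in naive Tregs, with 1 high library in each group. Its log2 fold change was -0.11 with a 95% interval from -0.77 to 0.55 (limma, adjusted p = 0.915). Pfkfb3 and Pfkfb4 make and break the activator of phosphofructokinase, and Pfkfb3 overlapped closely, at 22.1 to 30.3 RPKM in CML Tregs and at 23.2 to 29.5 RPKM in naive Tregs. Pfkfb4 was at 3.60 RPKM in CML replicate 1, at 0 in CML replicates 2 and 3, and at 2.85, 3.96 and 5.99 RPKM in naive Tregs. Its log2 fold change was -1.62 with an SE of 0.71 (limma, adjusted p = 0.522). A count of 0 allows up to 3 reads, which is 1.04 RPKM in CML replicate 2 and 0.376 RPKM in CML replicate 3, for counting error only.

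Hif1a (chromosome 12, 73901324 to 73947554) was the highest member, at 333, 259 and 399.6 RPKM in CML replicates 1, 2 and 3 and at 173, 225 and 240.2 RPKM in naive replicates 1, 2 and 3. The lowest CML library, replicate 2, was above the highest naive library, but the margin was small. The log2 fold change of Hif1a was 0.63 with an SE of 0.21 (limma, adjusted p = 0.392). An antisense gene, Gm15283, overlaps Hif1a with a longest match of 194 bases, and the kit does not mark the strand. The row of Gm15283 was at 2.06, 1.89 and 2.33 RPKM in CML Tregs and at 1.57, 2.43 and 1.74 RPKM in naive Tregs. Its part in the Hif1a values was not tested. Egln3, a prolyl hydroxylase that marks HIF-1α for degradation, and Bnip3, a mitophagy receptor, are both known HIF targets. Egln3 was at 2.19, 0 and 3.04 RPKM in CML Tregs and at 1.87, 0.317 and 3.70 RPKM in naive Tregs, and Bnip3 at 4.43, 0 and 6.21 RPKM in CML Tregs and at 3.42, 2.02 and 2.18 RPKM in naive Tregs. Both overlapped between the groups. The value of 0 in CML replicate 2 allows up to 1.36 RPKM of Egln3 and 2.06 RPKM of Bnip3.

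The 5 enzymes of the pentose phosphate pathway overlapped between the groups, and 0 of them had an unadjusted p under 0.05 in limma. Tkt, the transketolase that links this pathway back to glycolysis, was the highest, at 85.6, 55.4 and 87.6 RPKM in CML Tregs and at 76.0, 77.8 and 63.2 RPKM in naive Tregs. CML replicate 2 was the lowest library and CML replicate 3 the highest. Its log2 fold change was 0.05 with a 95% interval from -0.46 to 0.57 (limma, adjusted p = 0.950). The log2 fold changes of G6pdx, which encodes the first and rate-limiting enzyme, Pgls, Taldo1 and Pgd were -0.40, -0.44, -0.18 and 0.23, and the 95% interval of G6pdx ran from -1.31 to 0.52.

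The CML libraries differed in how many members left the naive range. CML replicate 1 had 18 of the 32 members above and 6 below the naive range, CML replicate 3 had 18 above and 7 below, and CML replicate 2 had 12 above and 15 below. Over all features tested, 27.1%, 18.6% and 33.6% lay above the naive range in CML replicates 1, 2 and 3, and 31.5%, 55.5% and 33.8% lay below. The median difference of the members from the naive mean was 0.34, -0.09 and 0.51 on the log2 scale in CML replicates 1, 2 and 3.

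**Figure D4:**
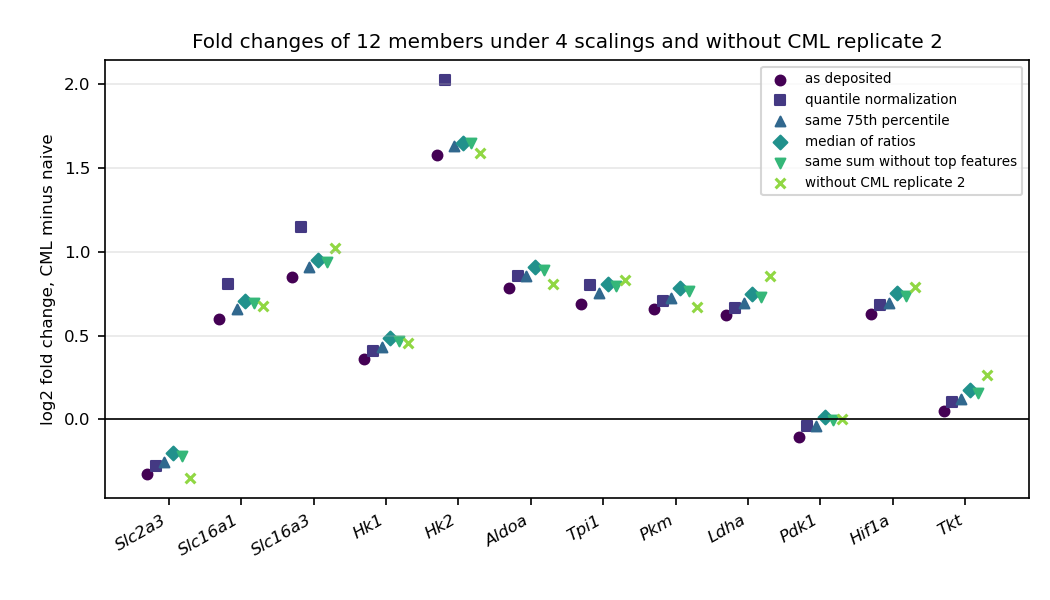
Log2 fold changes of the members named in full as deposited, under 4 scalings of the libraries and without CML replicate 2, on the log2(RPKM + 1) scale. Aldoa, Pkm, Ldha, Tpi1, Hif1a and Hk2 lie above 0 in each, Slc2a3 lies below 0, Pdk1 lies between -0.11 and 0.015, and Tkt lies between 0.05 and 0.26, highest without CML replicate 2.

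Neighboring pathways were described with lists of the same kind. Of 18 further glycolysis and pentose phosphate genes tested, 13 genes of pyruvate entry into mitochondria and 20 genes of the tricarboxylic acid cycle, 0 had an unadjusted p under 0.05 in either direction in limma, and their median log2 fold changes were -0.13, -0.14 and 0.01. Of 9 genes of the serine and one-carbon branch, 0 had an unadjusted p under 0.05, with a median of 0.41. Of 16 genes of the hexosamine, glycogen and glycerol branches, 1 (Gfpt2) was lower at that level, compared with 6.77% of all features. Gfpt2 encodes an amidotransferase that starts hexosamine synthesis. It was at 0.192, 0 and 0.427 RPKM in CML Tregs and at 4.99, 2.95 and 1.501 RPKM in naive Tregs, which gave a log2 fold change of -1.71 and an SE of 0.55 (limma, adjusted p = 0.370). The CML values of Gfpt2 rest on few reads. With quantile normalization its groups overlapped, with a log2 fold change of -1.06.

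Of 21 genes of oxygen sensing and HIF targets, 3 were higher and 2 lower in CML Tregs at an unadjusted p under 0.05 in limma, compared with 2.92% and 6.77% of all features, and the median was 0.14. Epas1, which encodes HIF-2α, the relative of HIF-1α, was at 8.91, 10.1 and 9.50 RPKM in CML replicates 1, 2 and 3 and at 0.367, 1.30 and 0.977 RPKM in naive replicates 1, 2 and 3. The CML libraries were close to each other and far above every naive library. The log2 fold change of Epas1 was 2.51 with an SE of 0.44 (limma, adjusted p = 0.109), and over the 17 alternatives the adjusted p ranged from 0.0483 with quantile normalization to 0.415 without naive replicate 2.

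Mif, a cytokine gene induced by hypoxia, was at 42.3, 58.9 and 66.6 RPKM in CML Tregs and at 26.6, 22.6 and 21.8 RPKM in naive Tregs, which gave a log2 fold change of 1.19 and an SE of 0.23 (limma, adjusted p = 0.155). Copies cover 93.4% of its transcript, so its level is uncertain. Ndrg1, a stress-induced HIF target, was lower, at 2.44, 4.07 and 4.06 RPKM in CML Tregs and at 8.78, 12.4 and 9.346 RPKM in naive Tregs, which gave a log2 fold change of -1.31 and an SE of 0.39 (limma, adjusted p = 0.327). The other genes at an unadjusted p under 0.05, named after their values were seen, were Nampt, which was higher, and Tpd52, which was lower. The groups did not overlap for Epas1, Mif and Ndrg1.

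Of the 20 genes of cycling cells, 18 had a log2 fold change above 0, compared with 35.7% of all features, and 3 were higher at an unadjusted p under 0.05 in limma, compared with 2.92% of all features. Cdk1, the kinase that drives mitosis, was at 13.5, 10.8 and 28.4 RPKM in CML Tregs and at 5.17, 8.54 and 3.90 RPKM in naive Tregs, which gave a log2 fold change of 1.37 (limma, adjusted p = 0.396). The log2 fold changes of Mcm5, a subunit of the replicative helicase, and Top2a, a topoisomerase, were 0.85 and 0.69, with adjusted p of 0.282 and 0.470 in limma. Of 15 reference genes, 0 had an unadjusted p under 0.05 in limma, and their median was -0.03. This list includes the members Gapdh and Pgk1, and Sdha of the tricarboxylic acid cycle list.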

How the data were processed

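RNA-Seq was run on Tregs from the BM of 3 CML and 3 naive mice. The authors prepared SMART-Seq v4 libraries, sequenced single-end reads, assembled them in SeqMan NGen version 15 and used ArrayStar version 15, naming DESeq2 for their own tests. The submitters' processing notes name the builds GRCm38 and mm10, and the annotation is not given in the sources used here. The deposited values were read as RPKM from their properties, as they are not whole, their sums differ between libraries and their steps depend on feature length. Because they are not counts, no count test was run. A deposited 0.001 marks no reads and was set to 0. Depth was estimated from the steps. Without the products that define a step, 31.7% to 58.5% of products up to 20 steps lay within 0.05 of a whole number. Intervals and floors cover counting error only.

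The groups were compared with limma 3.58.1 (R 4.3.3, trended variance, no replicate block) on log2(RPKM + 1), which understates the change of low genes, for features with a mean of at least 1 RPKM, with Benjamini-Hochberg adjustment over all of them. Isoenzyme ratios were compared with exact 2-sided permutation tests over 20 assignments.

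The members and lists were chosen with earlier results of these data known. Values in every library are given for members at an adjusted or unadjusted p under 0.05, members without overlap and the highest member of each role. Other lists name up to 3 genes at an unadjusted p under 0.05 with the largest fold change. Some further members were given in full after their values were seen. Eno1b, a near-identical copy of Eno1, was named for that reason. Copies were searched with BLAST+ 2.17.0 in GENCODE M21 transcripts. Gene positions and promoter windows are those of RefSeq on GRCm38.p6. Replicate numbers belong to different mice, so they pair no libraries. Alternatives covered the pseudocount, the filter, the scaling, the replicate block, the variance model, library weights and each library left out. A marker list is not reported here.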

Additional observations from a re-analysis of the deposited data

How the results depend on the processing

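The sign of the log2 fold change was kept under all 17 alternatives for Aldoa, Pkm, Ldha, Tpi1, Hif1a, Hk1, Slc16a1, Slc16a3 and Slc2a3, and for Hk2 under those that kept it, since it was not tested with a mean of at least 5 RPKM. The count of members past an adjusted p of 0.05 and 1.5-fold moved from 0 to 1 (Aldoa) with quantile normalization, the same 75th percentile, the median of ratios and the same sum without features above 10000 RPKM, and stayed at 0 with each library left out. Members higher at an unadjusted p under 0.05 numbered between 2 and 8 with each library left out, with 2 (Aldoa and Pkm) without naive replicate 1 and 3 (Hk2, Aldoa and Pkm) without CML replicate 3. Members lower at that level moved from 0 to 1 with a pseudocount of 0.1 (Pfkfb4), without a variance trend (Pfkfb4) and with array weights (Slc2a3), and to 1 without CML replicate 1 (Pfkfb4), 1 without CML replicate 2 (G6pdx) and 2 without CML replicate 3 (Eno3 and Ldhb). Members above the naive range numbered between 9 and 15 with each library left out, and members below it between 1 and 4 (4, 3 and 4 without CML replicates 1, 2 and 3, and 2 without naive replicate 1), but 0 with the 4 scalings, under which Slc2a3 overlapped.

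The median log2 fold change of the members lay between -0.000114 (without CML replicate 1) and 0.41 (without CML replicate 2) with each library left out and was 0.31 with quantile normalization, where that of all features was -0.01. Features higher and lower at an unadjusted p under 0.05 numbered 406 and 942, compared with 742 and 757 after quantile normalization, 696 and 792 with the median of ratios and 660 and 822 with the same sum. Pdk1 changed sign to 0.015 with the median of ratios and ranged from -0.33 to 0.10 with each library left out, and Tkt from -0.063 to 0.26. The log2 ratio of Slc16a1 to Slc16a3 differed by -0.43 to 0.011 and that of Pfkm to Pfkl by -0.050 to 0.46 with each library left out. With the replicate number as a block, 5 members were higher, 0 were lower and 0 passed the adjusted p. The numbers pair no mice (r of same-numbered libraries -0.0192 to -0.0016). All features past the adjusted p and fold numbered 24, compared with 0 with a pseudocount of 0.001, 1 without a filter, 1 with the block, 11 without a variance trend, 45 with array weights, between 46 and 53 with the 4 scalings, and between 0 and 29 with each library left out (0, 0 and 3 without naive replicates 1, 2 and 3, and 8 without CML replicate 3).

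Depth limits low genes most in CML replicate 2, and fold changes of Hk2, Pfkfb4, Egln3, Bnip3 and Gfpt2 rest on few reads. The values of Slc16a1 and Slc16a3 in CML replicate 2 also rest on few reads.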
